A study of Mus musculus with 9 samples.

Results

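The set described here holds 10 of the 13698 genes measured: Cpxm1, Bai2, Notch3, Epb4.1l5, Zfp385a, Mcam, Tubb3, Bag2, Cul7 and Acp5. They were chosen from the same expression values that are described below, because they were low or lower in both control groups than in Treg cells that lack the transcription factors Thpok and LRF. Their differences from the controls are therefore given as descriptions and carry no p-value. Regulatory T (Treg) cells are CD4 T cells that restrain immune responses and depend on the transcription factor Foxp3. Thpok, encoded by Zbtb7b, and LRF, encoded by Zbtb7a, are related zinc finger proteins that help to keep CD4 T cells in their lineage.

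RNA sequencing was done on 9 libraries of Treg cells from spleen and lymph node of female mice on a C56Bl6/129 mix background, with 3 groups of 3 libraries. Deficient cells were YFP+ MHCII- cells of LRFffThpokff Foxp3 Cre-YFP/X mice, in which both genes are floxed and Cre with YFP is made from the X-linked Foxp3 locus, so that only a part of the Treg cells of each female makes Cre. The genetic controls were YFP+ MHCII- cells of WT Foxp3 Cre-YFP/X mice, which carry Cre without floxed alleles. The animal controls were YFP- MHCII- CD25hi cells from the same LRFffThpokff mice as the deficient cells, which carry the floxed alleles but express the Foxp3 allele without Cre, and which were sorted through a different gate. The deficient and animal control libraries come from mice 142114, 232614 and 432614, and the genetic controls from mice 124, 8619 and 8800. The authors deposited normalized log2 values. They are given here on the linear scale and were read, from the values themselves, as CPM, counts scaled to the library total, after quantile normalization, which gives every library the same distribution. The depth of the libraries is unknown, and the lowest value in every library is 0.00457 CPM. In such bulk samples, more cells that express a gene and more RNA of it per cell cannot be told apart.

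The targeted genes were read first. Zbtb7b had 0.366, 0.266 and 0.147 CPM in deficient cells, against 92.1, 103 and 149 CPM in genetic controls and 76.9, 106 and 98.6 CPM in animal controls. Zbtb7a had 86.3, 78.8 and 103 CPM in deficient cells, within reach of the 69.5 to 111 CPM of genetic controls and the 90.6 to 128 CPM of animal controls. Zbtb7b was far lower in every deficient library, while Zbtb7a overlapped between the groups. A value for a whole gene can include RNA from outside the floxed part, so it does not check the deletion of Zbtb7a. Foxp3 was present in all libraries, at 26.5 to 35.9 CPM in deficient cells, 24.8 to 38.1 CPM in genetic controls and at least 754 CPM in animal controls.

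The label of the set, genes that are switched on, comes from the values that chose the members, so their fit to it is no test. As a description, it covers 8 of the 10. Cpxm1, Bai2, Notch3, Epb4.1l5, Zfp385a, Mcam, Tubb3 and Bag2 had 7.67 to 65.9 CPM in the deficient libraries. Their 48 values in the 6 control libraries were all under 1 CPM, the highest being 0.213 CPM, and 21 of the 48 lay at the lowest value. Cul7 was measured in genetic controls and was under 1 CPM only in animal controls. Acp5 was well expressed in every library. Fold changes are given only for these last genes, since a ratio to values near the bottom of the scale depends on where that bottom was set.

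As background, the genes belong to unrelated families. Notch3 is a receptor of the Notch pathway, in which a ligand on a neighbouring cell leads to cleavage of the receptor by gamma-secretase, and the released intracellular part joins the DNA-binding protein RBPJ and a Mastermind coactivator to turn on target genes. Notch signalling acts at several steps of T cell development. Mcam and Bai2 are surface proteins, Cpxm1 is secreted, Epb4.1l5 and Tubb3 belong to the cytoskeleton, Bag2 and Cul7 act in protein folding and turnover, Zfp385a binds nucleic acids, and Acp5 is an acid phosphatase of lysosomes.

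The start regions of the genes are described as a feature that the rule did not use. Of the 10 genes, 9 had an entry in the RefSeq promoter table of GRCm38.p6, with 12 promoters in all, each running from 250 bases before to 50 bases after an annotated start. Every member was matched to RefSeq, Bai2 and Epb4.1l5 through a synonym, as Adgrb2 and Epb41l5. The promoters of Cpxm1, Notch3 and Mcam are shown for their many GC boxes, the motif GGGCGG, and that of Cul7 for its RBPJ cores, the motif TGGGAA. They are written 5′ to 3′ along the strand of the gene, with these motifs on either strand in capitals, so that a match on the other strand appears as CCGCCC or TTCCCA. The windows are chr2:130397580-130397879 on the minus strand for Cpxm1, chr17:32166841-32167140 on the minus strand for Notch3, chr9:44134408-44134707 on the plus strand for Mcam and chr17:46650088-46650387 on the plus strand for Cul7.
Cpxm1: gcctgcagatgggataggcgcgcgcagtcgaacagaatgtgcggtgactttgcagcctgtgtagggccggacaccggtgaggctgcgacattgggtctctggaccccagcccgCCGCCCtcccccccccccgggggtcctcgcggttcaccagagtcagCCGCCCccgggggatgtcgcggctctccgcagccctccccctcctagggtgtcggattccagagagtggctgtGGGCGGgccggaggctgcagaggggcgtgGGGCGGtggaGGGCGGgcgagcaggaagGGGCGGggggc
Notch3: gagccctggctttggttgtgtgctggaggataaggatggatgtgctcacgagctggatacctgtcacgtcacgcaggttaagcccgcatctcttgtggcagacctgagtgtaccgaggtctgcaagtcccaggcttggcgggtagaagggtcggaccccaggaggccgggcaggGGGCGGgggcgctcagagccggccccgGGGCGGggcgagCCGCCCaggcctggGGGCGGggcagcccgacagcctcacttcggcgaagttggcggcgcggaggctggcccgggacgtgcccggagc
Mcam: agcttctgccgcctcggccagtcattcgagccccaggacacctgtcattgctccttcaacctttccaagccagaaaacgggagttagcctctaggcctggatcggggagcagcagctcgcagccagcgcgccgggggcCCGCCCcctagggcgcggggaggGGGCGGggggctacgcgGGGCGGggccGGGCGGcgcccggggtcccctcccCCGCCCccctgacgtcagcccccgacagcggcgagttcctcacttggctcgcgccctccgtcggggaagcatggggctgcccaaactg
Cul7: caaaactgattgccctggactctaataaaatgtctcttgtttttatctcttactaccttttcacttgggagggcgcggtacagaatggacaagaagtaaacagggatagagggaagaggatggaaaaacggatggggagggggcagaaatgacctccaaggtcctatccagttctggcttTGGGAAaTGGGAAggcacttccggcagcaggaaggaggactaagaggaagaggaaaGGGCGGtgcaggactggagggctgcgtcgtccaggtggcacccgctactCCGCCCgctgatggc

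The GC box was found in all 12 promoters, and so in all 9 members with an entry, against 61.6% of 12026 promoters of genes in the expression table and 35.7% of all 32851 promoters. Cpxm1 held 6 copies, Mcam 5, Notch3 4 and Cul7 2. The RBPJ core was in 3 of the 12 promoters, those of Cul7, with 2 copies, and Acp5, against 22.8% of promoters of genes in the table. The Runx core TGTGGT and the TATA box TATAAA were in none of the 12, against 13% and 6.89% of promoters of genes in the table. The median observed over expected CpG ratio was 0.66 in the member promoters, against 0.76 in promoters of genes in the table and 0.38 in all promoters, and the median GC content was 68.7%, against 60.7% and 52.7%. These are matches of letters in short windows and were not tested.

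Notch3, the only Notch receptor in the set, lies at chr17:32120820-32166896 (GRCm38.p6). It had 56, 65.9 and 11.1 CPM in deficient cells of mice 142114, 232614 and 432614, against 0.0191, 0.0357 and 0.00891 CPM in genetic controls and 0.00789, 0.213 and 0.00457 CPM in animal controls. The groups did not overlap, and the deficient library of mouse 432614 was far below the other two.

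Mcam, an adhesion molecule of the immunoglobulin superfamily also known as CD146, lies at chr9:44134658-44142727. It had 11.9, 16.2 and 53.9 CPM in deficient cells, against 0.00457 to 0.0188 CPM in genetic controls and 0.00789 to 0.0959 CPM in animal controls. Here mouse 432614 gave the highest deficient value. Bai2, an adhesion G protein-coupled receptor best known from brain, lies at chr4:129984773-130022633. It had 7.93, 9.11 and 19.7 CPM in deficient cells, and 0.00457 to 0.0105 CPM in genetic controls and 0.00457 to 0.00789 CPM in animal controls, again with the highest value in mouse 432614. Cpxm1, a secreted protein of the carboxypeptidase family that is thought to lack enzyme activity, lies at chr2:130390775-130397629. It had 23.8, 16.7 and 14.4 CPM in deficient cells, 0.00457 to 0.0066 CPM in genetic controls and 0.00457 to 0.00789 CPM in animal controls. No control library of any of these surface or secreted members reached 1 CPM.

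Epb4.1l5, a band 4.1 protein that links membrane proteins such as Crumbs to the actin cytoskeleton, lies at chr1:119545032-119649096. It had 39.2, 51 and 24.6 CPM in deficient cells, against 0.0105, 0.0839 and 0.0213 CPM in genetic controls and 0.00457, 0.0317 and 0.00457 CPM in animal controls. Tubb3, a beta-tubulin used as a marker of neurons, lies at chr8:123411553-123422015. It had 12.2, 7.67 and 14.7 CPM in deficient cells, against 0.00457 to 0.0066 CPM in genetic controls and 0.00457 to 0.0641 CPM in animal controls. Both were apart from the controls in all 3 mice. Beta-tubulin genes are nearly identical over long stretches, so the counting could have split reads between them, and the Tubb3 values are uncertain for that reason.

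Zfp385a, a zinc finger protein that binds RNA and p53, lies at chr15:103313895-103340086. It had 12.2, 9.17 and 18.9 CPM in deficient cells, against 0.00457 to 0.0066 CPM in genetic controls and 0.00457 to 0.0317 CPM in animal controls. Bag2, a co-chaperone that binds HSP70, lies at chr1:33745484-33757750. It had 10.8, 15.6 and 8.34 CPM in deficient cells, against 0.00457 to 0.0188 CPM in genetic controls and 0.00457 to 0.0317 CPM in animal controls. Neither gene overlapped between the groups.

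Cul7, the scaffold of a ubiquitin ligase that uses the F-box protein Fbxw8, lies at chr17:46650338-46664364. It had 60.8, 59.7 and 34.7 CPM in deficient cells, against 16.4, 19.4 and 2.97 CPM in genetic controls and 0.0248, 0.254 and 0.0123 CPM in animal controls. Its genetic control libraries all lay above its animal control libraries. Its mean was 51.7 ± 14.7 CPM in deficient cells and 12.9 ± 8.74 CPM in genetic controls (SD, n = 3 each), a ratio of means of 4 and a difference of mean log2 values of 2.35 ± 1.32 (SE).

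Acp5, the tartrate-resistant acid phosphatase used as a marker of osteoclasts and some macrophages, lies at chr9:22126727-22135746. It had 492, 429 and 507 CPM in deficient cells, against 205, 223 and 210 CPM in genetic controls and 220, 129 and 247 CPM in animal controls. The lowest deficient library lay above the highest control library. The log2 difference was 1.16 ± 0.22 (SE) against genetic controls and 1.31 ± 0.22 against animal controls, or ratios of means of 2.24 and 2.4. Within mice 142114, 232614 and 432614 the deficient cells had 2.24, 3.33 and 2.05 times the value of the animal control. The genetic and animal controls differed by 0.15 ± 0.22 on the log2 scale.

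**Figure D1:**
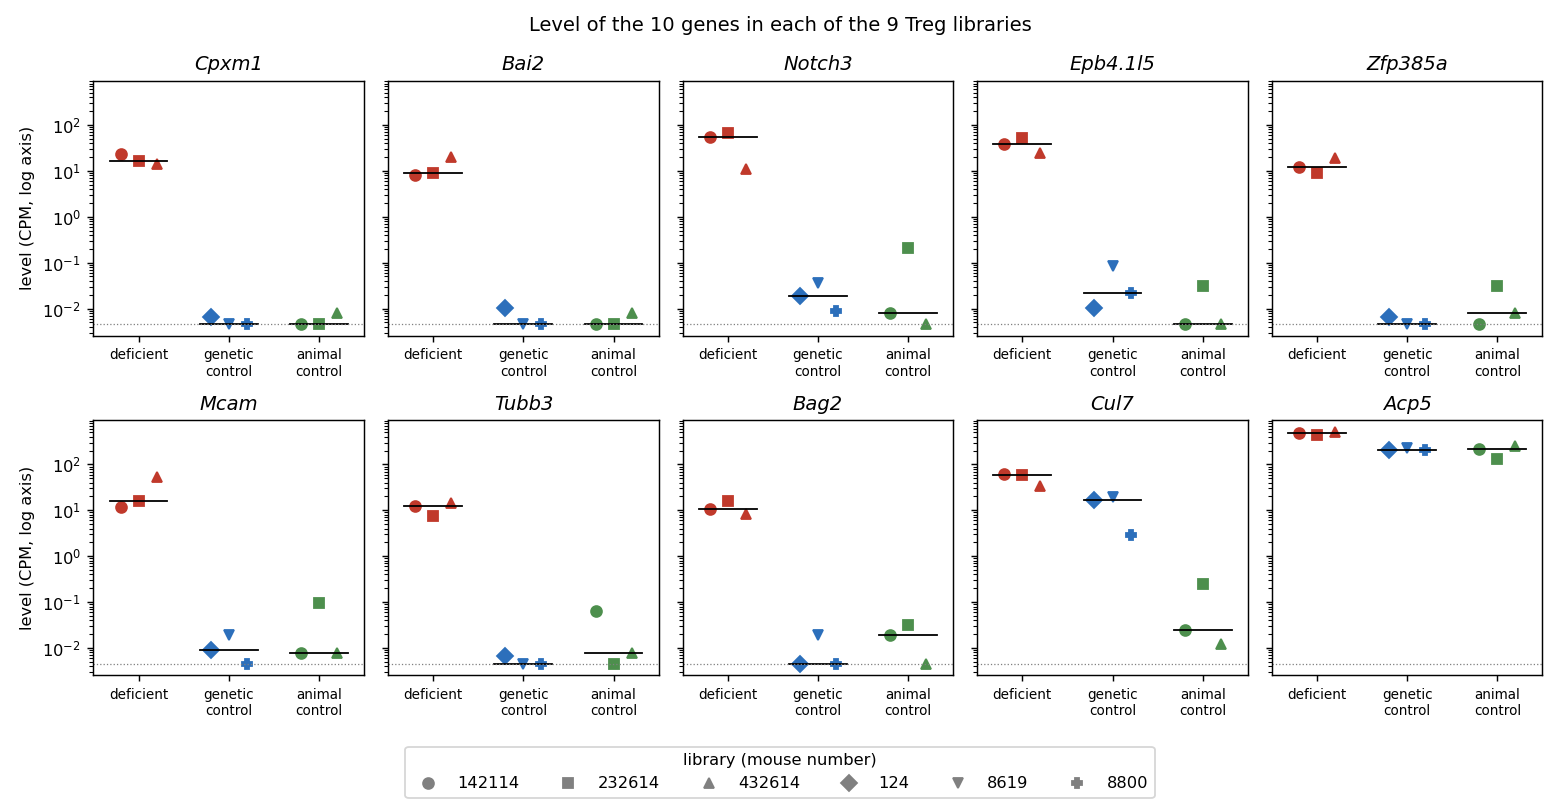
CPM on a log axis of each of the 10 genes in the 3 deficient, 3 genetic control and 3 animal control libraries, with the group median as a black line and the lowest value of 0.00457 CPM as a dotted line. In 8 genes all 6 controls lie under 1 CPM, Cul7 is in between in genetic controls, and Acp5 is high in all 9 libraries.

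All 10 members lay above every control library in every deficient library. Over all genes, 3.47% did so against the 6 controls together, 8.44% against the genetic controls and 7.85% against the animal controls. Since the rule chose the members on this contrast, nothing is read from that count. By limma at an adjusted p under 0.05, 0.336% of all genes were called higher and 0.533% lower in deficient cells than in genetic controls, 0.869% in all. Against animal controls, 0.307% were called higher and 0.584% lower, 0.891% in all. The higher calls rest on all 3 deficient libraries: against genetic controls there were 46, but 10, 11 and 10 without deficient 142114, 232614 and 432614, and against animal controls 42, but 16, 11 and 13. The 2 comparisons share the deficient libraries.

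Counting genes rather than members shows how often such a pattern occurred in either direction. With thresholds chosen after the data were seen, at least 5 CPM in every library on 1 side and at most 1 CPM in every library on the other, 10 genes (0.073% of all) were high only in the deficient group. They were the 8 members named above together with Maml3 and Rcor2. The reverse, low only in the deficient group, was met by 8 genes. Taking the genetic controls as the odd group gave 1 gene high and 2 low, and taking the animal controls gave 3 high and 2 low. A pattern of this kind was also seen in single libraries: 9, 19 and 19 genes were high in a single deficient library, 6, 19 and 10 in a single genetic control library and 10, 17 and 10 in a single animal control library. With at least 3 and at most 2 CPM, 16 genes were high only in the deficient group, and the 6 just outside the first thresholds were 2700081O15Rik, Arhgef25, Egfl7, Gm11998, Hist2h2be and Phf19. Rcor2, a corepressor of the CoREST family, had 11.1, 5.42 and 13.4 CPM in deficient cells, at most 0.658 CPM in genetic controls and 0.00457 CPM in all animal controls.

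**Figure D2:**
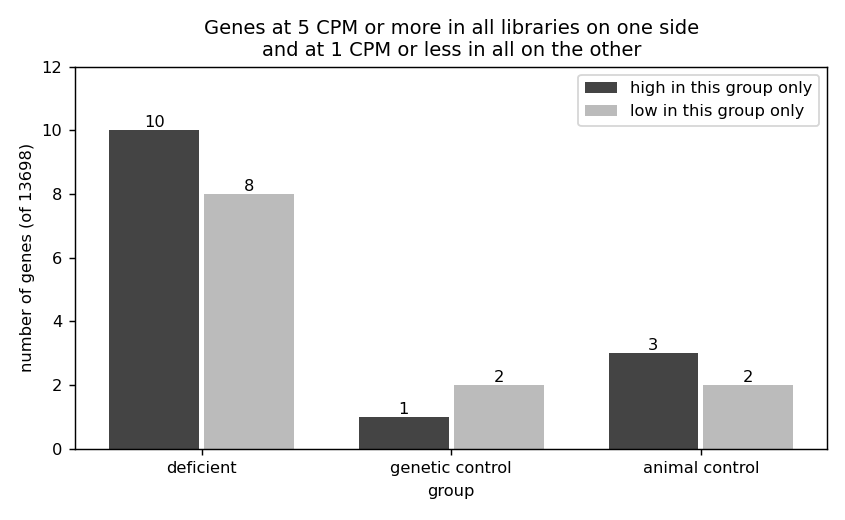
Number of genes with at least 5 CPM in every library of a group and at most 1 CPM in every other library, and the reverse, for each group taken in turn. The deficient group has 10 high and 8 low, the genetic controls 1 and 2, and the animal controls 3 and 2.

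Across the 3 deficient libraries the members differed in which mouse was high and which was low. The highest deficient value was 5.96 times the lowest for Notch3, 4.51 times for Mcam, 2.48 times for Bai2 and 1.18 times for Acp5, with the other 6 between 1.65 and 2.08 times. The library of mouse 432614 was the highest of the 3 for Bai2, Zfp385a, Mcam, Tubb3 and Acp5, and the lowest for Cpxm1, Notch3, Epb4.1l5, Bag2 and Cul7. In it Notch3 had 0.25 and Mcam 1.97 times its mean over the deficient libraries. Mouse 142114 was highest for 2 members and lowest for 2, and mouse 232614 highest for 3 and lowest for 3.

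**Figure D3:**
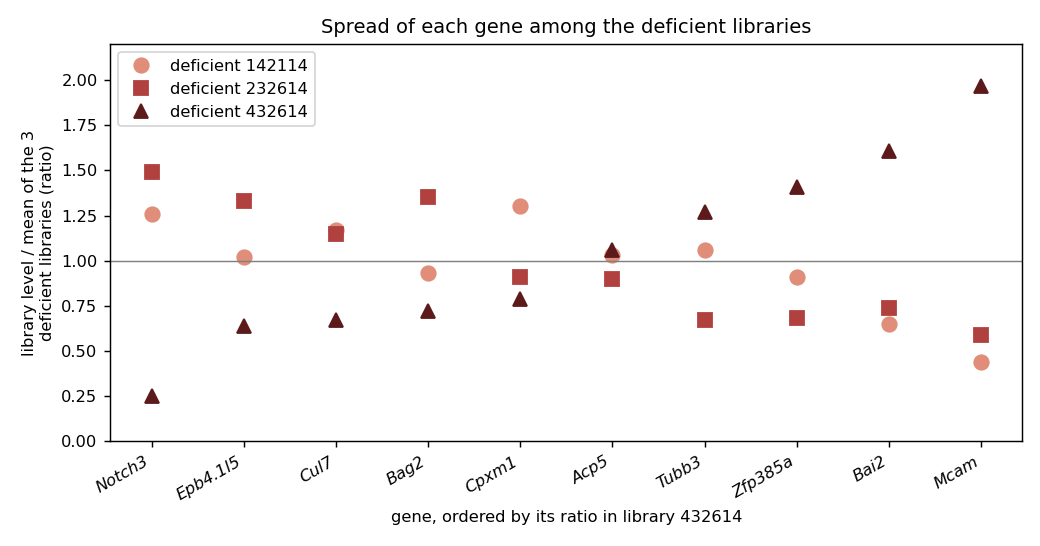
Value of each of the 10 genes in each deficient library divided by its mean over the 3 deficient libraries. Mouse 432614 runs from 0.25 for Notch3 to 1.97 for Mcam, while Acp5 stays close to 1 in all 3 mice.

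Levels of different genes were compared per kilobase of exon (union of GENCODE M21 exons). Acp5 stood first with a mean of 234 CPM per kb in deficient cells. The others followed at 8.16 for Mcam, 7.53 for Cpxm1, 6.98 for Cul7, 6.16 for Tubb3, 5.48 for Notch3, 5.34 for Zfp385a, 3.79 for Bag2, 2.59 for Epb4.1l5 and 1.89 for Bai2. Apart from Acp5 and Mcam, neighbours in this order overlapped in their deficient libraries.

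Genes of the same pathways and families were then tested, 139 genes in 10 lists with measured genes. By limma, 2 of the 139 rose and 1 fell against genetic controls, and 2 rose and 1 fell against animal controls, at an adjusted p under 0.05 over all genes. Of all genes, 0.869% and 0.891% were called in these comparisons. At an unadjusted p under 0.05 there were 22 and 24 of the 139, beside 10.6% and 11.9% of all genes. The median log2 difference of the 139 was 0.05 and 0.11, beside 0.04 over all genes in both comparisons. The genes were Psen2 and Tubb5 in both comparisons, Maml3 against genetic controls and Gpr56 against animal controls. With the mouse as a fixed term, the animal control comparison called 0 of all 13698 genes, although 1395 had an unadjusted p under 0.05. It called 0 of the 139 genes, of which 20 had an unadjusted p under 0.05. The fixed-term fit used only the 6 deficient and animal control libraries, and without the term those 6 gave 52 calls over all genes. Its p-values therefore do not show the effect of the pairing alone.

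In the Notch pathway, 28 of 37 listed genes were measured. Psen2, a catalytic subunit of gamma-secretase, fell to 34.7, 55.4 and 40.3 CPM in deficient cells, against 114, 112 and 133 CPM in genetic controls and 138, 178 and 186 CPM in animal controls. The log2 difference was -1.48 ± 0.24 (SE, adjusted p = 0.024) and -1.96 ± 0.24 (adjusted p = 0.005). With the mouse as a fixed term the adjusted p against animal controls was 0.205, and without the mean-variance trend it was 0.0947 against genetic controls. Against animal controls Psen2 was called in all 9 fits that leave out a library. Against genetic controls it was called in 4 of 9, and not without deficient 142114 or 432614 or without any of the genetic controls, where adjusted p ran up to 0.109. Maml3, a Mastermind coactivator, had 21.8, 12.7 and 29.4 CPM in deficient cells, 0.0105, 0.0188 and 0.00891 CPM in genetic controls and 0.5, 0.00457 and 0.00789 CPM in animal controls. Its adjusted p was 0.0495 against genetic controls and 0.0749 against animal controls, and it was called against genetic controls in 1 of the 9 fits that leave out a library, without animal control 142114. Over these 9 fits its adjusted p reached 0.158, without genetic control 8800. On the log2(CPM + 1) scale Maml3 was called in both comparisons, with an adjusted p of 0.00468 against genetic and 0.00453 against animal controls. Against animal controls it was called in 2 of 16 alternatives, on that scale and without animal control 142114 (adjusted p = 0.0369), and the adjusted p reached 0.321 with the mouse as a fixed term.

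The other Notch receptors measured did not pass the test. Notch1 had 17.9, 53.2 and 41.9 CPM in deficient cells, against 71.3, 70.9 and 59.9 CPM in genetic controls and 81, 22.4 and 87.4 CPM in animal controls (adjusted p = 0.588 and 0.732). Notch2 had 26.2, 5.17 and 14 CPM in deficient cells, against 42.8, 33.1 and 63.3 CPM in genetic controls and 32.1, 12.9 and 11.4 CPM in animal controls (adjusted p = 0.33 and 0.87). Notch1 and Notch2 were thus measured in all control libraries, where Notch3 stayed under 1 CPM. The median log2 difference of the Notch list was 0.02 against genetic controls and 0.03 against animal controls, close to that of all genes.

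**Figure D4:**
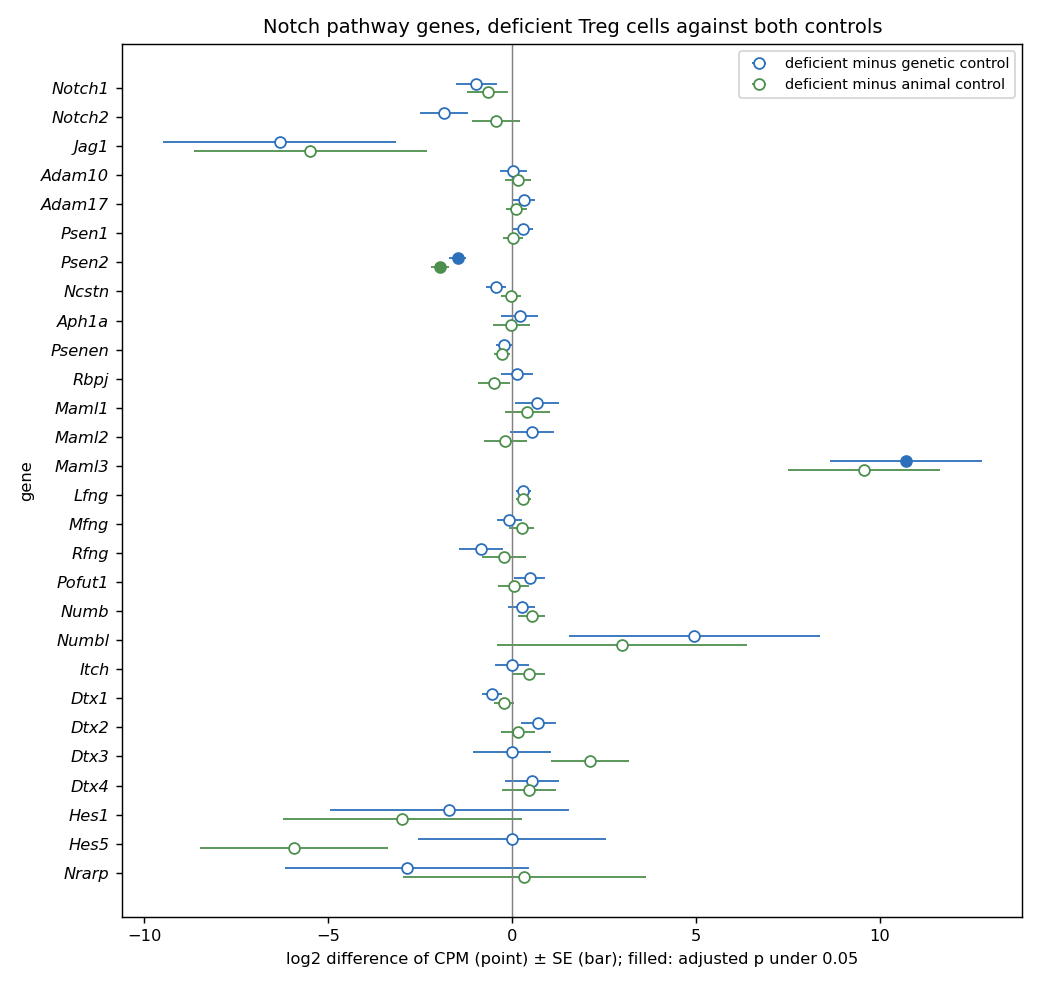
Log2 difference of each measured Notch pathway gene in deficient cells against genetic and animal controls, with its standard error, filled where the adjusted p was under 0.05. Psen2 is lower in both comparisons, Maml3 is filled only against genetic controls, and Notch1 and Notch2 are open.

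Among tubulins and their chaperones, 19 of 23 listed genes were measured. Tubb5, the main beta-tubulin of lymphocytes, rose to 726, 795 and 808 CPM in deficient cells, against 391, 536 and 384 CPM in genetic controls and 369, 453 and 404 CPM in animal controls. The log2 difference was 0.84 ± 0.15 (SE, adjusted p = 0.0307) and 0.93 ± 0.15 (adjusted p = 0.0161), and every deficient library lay above every control. Without the mean-variance trend the adjusted p was 0.322 and 0.249, and with the mouse as a fixed term it was 0.17 against animal controls. The call held in 3 of 9 fits that leave out a library against genetic controls, those without genetic control 8619, animal control 142114 or animal control 232614, and reached 0.121 without genetic control 8800. Against animal controls it held in 5 of 9 and reached 0.0711, with the call lost without deficient 232614 or 432614 or animal control 142114 or 432614. Tubb2a had 97.1, 71.2 and 170 CPM in deficient cells, against 35.7, 33.5 and 31 CPM in genetic controls and 44.6, 48.3 and 50.3 CPM in animal controls, and was not called (adjusted p = 0.0576 and 0.189). Tubb2b had 65.2, 36.8 and 68 CPM in deficient cells, against 0.0328, 7.09 and 2.49 CPM in genetic controls. It had 0.0402, 22.8 and 1.73 CPM in animal controls. The groups did not overlap, but Tubb2b was not called (adjusted p = 0.41 and 0.406). As for Tubb3, reads could have been split between beta-tubulin genes, so the values of Tubb5, Tubb2a and Tubb2b are uncertain too.

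Of 29 other adhesion G protein-coupled receptors listed beside Bai2, 10 were measured. Gpr56, a receptor carried by cytotoxic lymphocytes, had 64.5, 121 and 62.9 CPM in deficient cells, against 7.33, 22.8 and 7.39 CPM in genetic controls and 8.28, 6.53 and 10.6 CPM in animal controls. The groups did not overlap. It rose against animal controls by 3.25 ± 0.56 on the log2 scale (SE, adjusted p = 0.0289), while the difference of 2.88 ± 0.56 from genetic controls had an adjusted p of 0.0537. With the mouse as a fixed term the adjusted p against animal controls was 0.284. That call was lost in 6 of the 9 fits that leave out a library, those that leave out any of the deficient or animal control libraries, where adjusted p reached 0.114. The medians of this list, 1.73 and 2.25 on the log2 scale, rest on these 10 genes.

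No gene of the other lists with measured members passed the test, and none of the 3 relatives listed for Zfp385a was analysed here. Median log2 differences are given first against genetic and then against animal controls. For p53, 21 of 22 genes were measured (medians -0.07 and 0.03), and Mdm4, an inhibitor of p53, had the lowest adjusted p against genetic controls (0.128), with 65.8, 74.2 and 52.6 CPM in deficient cells and 32.1, 14.2 and 15.6 CPM in genetic controls. Its 28, 48.7 and 60.4 CPM in animal controls overlapped the deficient cells (adjusted p = 0.7). Ei24 had the lowest adjusted p against animal controls (0.333), with 35.4, 37 and 17 CPM in deficient cells. It had 50.3, 63.6 and 60.9 CPM in genetic controls (adjusted p = 0.302) and 51.7, 65.7 and 48 CPM in animal controls, without overlap. For the carboxypeptidases related to Cpxm1, 4 of 7 were measured (medians -1.35 and -1.47), and Aebp1 had 0.114, 16.6 and 1.15 CPM in deficient cells and at most 0.00891 CPM in any control (adjusted p = 0.17 and 0.16). Cpe went the other way, with at most 0.026 CPM in deficient cells and means of 6.31 and 11.6 CPM in the controls (adjusted p = 0.223 and 0.212). Cpd averaged 10.1 CPM in deficient cells, against 38.8 and 25.4 CPM (adjusted p = 0.303 and 0.419). Cpm overlapped between the groups. For band 4.1 proteins, ERM proteins and Crumbs partners, 10 of 15 were measured (medians 0.41 and 0.18), and Rdx, which links membranes to actin, had the lowest adjusted p against genetic controls (0.115), with 250, 257 and 289 CPM in deficient cells and 172, 151 and 140 CPM in genetic controls. Its 254, 160 and 204 CPM in animal controls overlapped the deficient cells (adjusted p = 0.454). Ezr had the lowest adjusted p against animal controls (0.213), with 767, 634 and 644 CPM in deficient cells. It had 569, 415 and 343 CPM in genetic controls (adjusted p = 0.198) and 449, 384 and 510 CPM in animal controls, without overlap. For immunoglobulin adhesion molecules and laminin chains, 8 of 16 were measured (medians 1.19 and 0.27). Lamc1, a laminin chain, had 60.3, 51.9 and 48.7 CPM in deficient cells, against 23.3, 32.5 and 2.42 CPM in genetic controls (adjusted p = 0.4) and 32.5, 33.2 and 59 CPM in animal controls, which overlapped the deficient cells (adjusted p = 0.917). Its low value in genetic control 8800 stands apart from the other genetic controls. Alcam had the lowest adjusted p against animal controls (0.627). It averaged 0.404 CPM in deficient cells, 1.28 CPM in genetic controls and 3.9 CPM in animal controls, with overlap between the groups.

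For BAG proteins and HSP70 chaperones, 20 of 21 were measured (medians 0.02 and 0.03). Bag3, another co-chaperone of HSP70, had 0.00457, 6.84 and 0.026 CPM in deficient cells, against 22.7, 10.9 and 12.1 CPM in genetic controls and 1.22, 22.2 and 26.2 CPM in animal controls (adjusted p = 0.284 and 0.32). Without deficient 232614 its adjusted p was 0.0416 and 0.0485. Bag1 had 106 to 140 CPM in deficient cells, 111 to 141 CPM in genetic controls and 71.1 to 122 CPM in animal controls. Bag5 had 45.4 to 72.8 CPM in deficient cells, 41.4 to 74.2 CPM in genetic controls and 22.6 to 51.9 CPM in animal controls. Neither was called. For cullins and partners of Cul7, 14 of 16 were measured (medians -0.13 and 0.02). Fbxw8, the F-box partner of Cul7, had 7.58, 0.702 and 9.02 CPM in deficient cells, against 39.5, 66 and 23 CPM in genetic controls and 24.5, 37.3 and 48.3 CPM in animal controls (adjusted p = 0.161 and 0.175). Cul9, the closest relative of Cul7, had 1.36, 0.062 and 0.026 CPM in deficient cells, 1.57 to 21.8 CPM in genetic controls and 0.314 to 24.2 CPM in animal controls (adjusted p = 0.361 in both). For acid phosphatases, 5 of 6 were measured (medians -0.14 and -0.27). Acp2, a lysosomal enzyme, had 9.92 to 15.5 CPM in deficient cells, 7.82 to 21.8 CPM in genetic controls and 16.6 to 39.7 CPM in animal controls, and was not called. Pxylp1 had at most 0.026 CPM in deficient cells, against 0.0852, 10.6 and 0.0213 CPM in genetic controls and 13, 9.51 and 15.6 CPM in animal controls (adjusted p = 0.553 and 0.101).

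The genomic neighbours of the members were tested as a measure that the rule did not use. The 2 nearest measured genes on each side of each member gave 40 genes, of which 0 were called in either comparison by limma. At an unadjusted p under 0.05 there were 3 of the 40 against genetic controls and 1 against animal controls, beside 10.6% and 11.9% of all genes. With 0.869% and 0.891% of all genes called, 0 of 40 does not set the neighbours apart, and without the mean-variance trend again 0 were called. On the log2(CPM + 1) scale, used here after the data were seen so that values near 0 do not dominate, the neighbours differed by -2.12 to 1.5 against genetic controls with a median of 0.03, and by -1.51 to 1.46 against animal controls with a median of 0.1. The members, chosen for their differences, ran from 1.16 to 5.18 and from 1.31 to 5.55. Cbl, a ubiquitin ligase gene 0.2 kb from Mcam, had 84.1, 41.2 and 65.9 CPM in deficient cells, against 79.8, 63.1 and 89.2 CPM in genetic controls and 112, 88.5 and 18.4 CPM in animal controls. Mrpl2, 0.2 kb from Cul7, had 35.1, 48 and 51.7 CPM in deficient cells, against 40.2, 32.1 and 58 CPM in genetic controls and 26.6, 51.7 and 54.6 CPM in animal controls. Both neighbours overlapped between the groups.

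**Figure D5:**
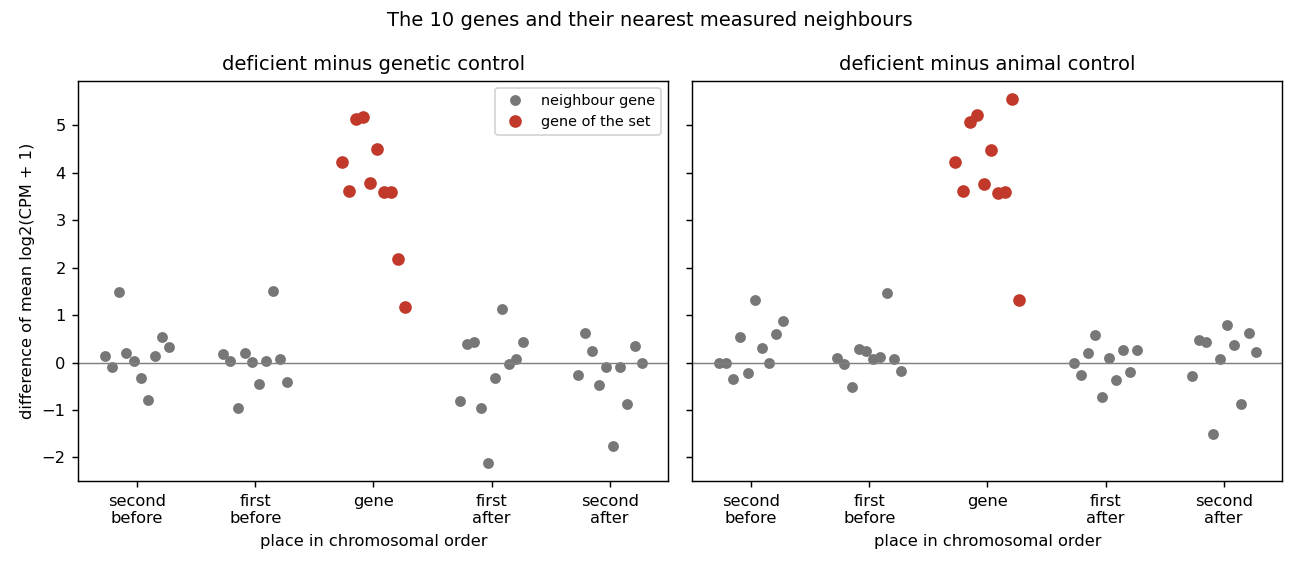
Difference of mean log2(CPM + 1) in deficient cells against each control group for the 10 members in red and their 40 nearest measured genes in grey. Members run from 1.16 to 5.18 and from 1.31 to 5.55, and neighbours from -2.12 to 1.5 and from -1.51 to 1.46.

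Several members overlap other annotated genes in GENCODE M21, none of them in the expression table. Gm17276 lies antisense to Notch3, Gm10687 antisense to the end of Mcam, Gm37905 opposite Bag2 and 6530413G14Rik opposite Acp5, while Gm37219, Gm20388 and Gm26904 share the strand of Epb4.1l5, Tubb3 and Cul7. The strand setting of the counting is unknown, so reads of these genes could not be told from those of the members.

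Markers of other cell types were summed in every library, since several members are used as markers elsewhere. Of 7 endothelial markers only Pecam1 was measured, with 64.3 to 148 CPM in deficient cells, below the 226 to 243 CPM of genetic controls and the 167 to 220 CPM of animal controls. Mcam is itself used as a marker of endothelium. None of 7 pericyte and smooth muscle markers, 7 fibroblastic stroma markers and 7 neuronal markers was among the genes analysed here. The summed macrophage and osteoclast markers, 5 of 8 measured, had 28.5 to 63 CPM in deficient cells, 12 to 319 CPM in genetic controls and 1.23 to 11.3 CPM in animal controls. The highest sum was in genetic control 8619.

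Markers of lymphoid types also differed between the groups. Both CD8 T cell markers summed to 585 to 593 CPM in deficient cells, against 28.3 to 85 CPM in genetic controls and 64.4 to 105 CPM in animal controls. Cd8a was called higher against genetic and animal controls (limma, adjusted p = 0.00188 and 0.00345). Cd8b1 was called against genetic controls (adjusted p = 0.037) but not against animal controls (adjusted p = 0.088). The NK cell markers, 3 of 6 measured and mostly Nkg7, summed to 237 to 252 CPM, against 60.5 to 117 CPM and 64.1 to 84.7 CPM. Only Nkg7 was higher on average, at 242 CPM against 70.5 and 70.4 CPM. Eomes averaged 3.06 CPM, against 5.39 and 3.9 CPM, and Klrb1c 0.891 CPM, against 3.71 and 1.46 CPM. Nkg7 was called in both comparisons (limma, adjusted p = 0.0237 against genetic and 0.0245 against animal controls), while neither Eomes nor Klrb1c was called. The immature thymocyte markers, 4 of 6 measured, summed to 118 to 200 CPM, against 98.3 to 117 CPM and 81.7 to 106 CPM, with Rag1 at the lowest value in all deficient and genetic control libraries. Themis averaged 93.4 CPM in deficient cells, against 47.9 and 30.6 CPM, while Cd1d1 averaged 46.7 CPM, against 55.3 and 56 CPM. Dntt had 22.1 CPM in deficient 232614 but 1.85 and 0.026 CPM in deficient 142114 and 432614. None of these thymocyte markers was called. The B cell markers, 3 of 6 measured, summed to 52.8 to 69.3 CPM in deficient cells, 13.8 to 28.5 CPM in genetic controls and 57.9 to 96.4 CPM in animal controls, and the plasmacytoid dendritic cell markers, 3 of 6 measured, to 36.3 to 58.1, 38.2 to 51.8 and 59.8 to 89.2 CPM. The 8 Treg and T cell markers summed to 3454 to 3699 CPM in deficient cells, 3755 to 4402 CPM in genetic controls and 5334 to 6000 CPM in animal controls. Foxp3 averaged 905 CPM in animal controls, against 32.2 CPM in deficient cells and 33.3 CPM in genetic controls. Il2ra, the gene of CD25, averaged 770, 473 and 676 CPM in that order. Both were called lower in deficient cells than in animal controls (limma, adjusted p = 5.18e-05 and 0.0497), and neither against genetic controls. Ctla4, Cd3d, Trac and Ikzf2 were not called in either comparison. Cd4, the coreceptor of the lineage, fell to 381, 329 and 355 CPM in deficient cells, against 1026, 678 and 892 CPM in genetic controls and 820, 860 and 988 CPM in animal controls (limma, adjusted p = 0.00488 and 0.00338). Cd3e, a chain of the T cell receptor complex, had 1260, 1307 and 1197 CPM in deficient cells, against 971, 924 and 824 CPM in genetic controls (adjusted p = 0.0398) and 1378, 1241 and 1408 CPM in animal controls (adjusted p = 0.746). The part of these marker differences in the levels of the members was not tested.

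The genes whose levels ran most like the members were found by Pearson's r over the 9 libraries with the mean of the members' standardized log2 values. The search took genes that averaged 10 CPM or more in deficient cells and left out genes with Gm-number or Rik names. The closest were Igsf23 (0.975), Hmgn2 (0.971), Fbxl6 (0.959), Tubb5 (0.958), Ecm1 (0.955), Nkg7 (0.949), Gadd45g (0.947) and Saraf (0.945). The 9 libraries fall into the groups that chose the members, so these values are a description. Hmgn2, a nucleosome-binding protein, had 264, 268 and 237 CPM in deficient cells, against 76.1, 105 and 64.6 CPM in genetic controls and 83.7, 86.9 and 51.9 CPM in animal controls. Fbxl6 differed far less, with 53.6 to 56 CPM in deficient cells, 44.9 to 47.6 CPM in genetic controls and 45.8 to 48.6 CPM in animal controls.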

How the data were processed

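Gene expression was measured by RNA sequencing in 9 libraries of mouse Treg cells. Per the labels' protocols, column-purified RNA was amplified by a template-switching method for low amounts, and the cDNA was cut and tagged by a transposase. The submitters' processing notes name bcl2fastq 1.8.4, STAR 2.4.0h, limma without a version and the build mm10. Not given in the sources used here are the counting tool, annotation and strand setting.

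The authors deposited log2 values. Their linear values sum to 999252 to 999256 per library, and all 9 columns share the lowest (-7.77) and highest (13.42) values, so they were read as log2 CPM, quantile-normalized. Depth is unknown, and 8% to 11.4% of genes lay at the lowest value. Of 13702 rows, 4 duplicates were dropped.

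The values were fitted with limma 3.58.1 (trend, group means, all 9 libraries, R 4.3.3, data.table, version 1.17.8), two-sided, with Benjamini-Hochberg adjustment over all 13698 genes at 0.05. The fit was also run on simulated data. Changes were simulated only in genes that averaged 10 CPM or more and varied little, so that run does not cover genes near the lowest value. The members and lists were chosen with earlier results of these data known. The named genes were the members, the targeted genes, close relatives, called list members or else the lowest adjusted p, and the 8 genes most alike in pattern. Rcor2, Cbl, Mrpl2, Cpe, Cpd, Cpm, Tubb2b, the markers named singly and the genes just outside the on and off thresholds were chosen after their values were seen. RefSeq matched 12720 symbols (92.9%). Alternatives were no trend, log2(CPM + 1), filters at 1 and 10 CPM, 6 libraries only, array weights, a mouse block and leaving out each library. The block as a fixed term was fitted to the 6 deficient and animal control libraries, and as a random term to all 9.

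Deficient cells and animal controls are paired by mouse, per the series' design text and the shared title numbers. The deviations from group means of the same mouse correlated at 0.0165, 0.0319 and 0.0122, those of different mice at -0.0271 to 0.0113.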

Additional observations from a re-analysis of the deposited data

How the results depend on the processing

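By limma, 0 neighbours were called under any alternative run. Genes called against genetic controls were 119, but 22 with the 6 libraries only, and 48 to 93 without 1 library. Of these, 46 were higher, but 10 to 36 without 1 library, and 73 lower, but 26 to 61. The higher calls were 10, 11 and 10 without deficient 142114, 232614 and 432614, 22 and 18 without genetic control 8619 and 8800, and 29 without animal control 432614. The lower calls were 35, 26 and 31 without genetic control 124, 8619 and 8800, and 43 without animal control 432614. Without the trend, 46 rose and 39 fell, against 46 and 73. Against animal controls 122 were called, 52 with the 6 libraries only, and 58 to 115 without 1 library. Of these, 42 were higher, but 16, 11 and 13 without the same deficient libraries and 17 without animal control 432614, which were the counts furthest from 42. The lower calls were 80, but 46, 50 and 41 without animal control 142114, 232614 and 432614. With the mouse as a replicate block, a random term over all 9 libraries gave 148 calls. A fixed term left 0, but it was fitted to the 6 libraries only, where 52 were called without a block. The fixed-term fit thus differs from the main fit in its libraries as well as in the block. The related genes called against genetic controls were 3, but 0 without the trend, 0 with the 6 libraries only, and 0 to 3 without 1 library. Against animal controls they were 3, but 1 without the trend, 0 with the mouse as a fixed replicate block, and 1 to 4 without 1 library. Zbtb7b, lower in all 3 mice by 8.58 on the log2 scale on average, had an adjusted p of 0.17 with the fixed block. Tubb2a was called against genetic controls with a filter at 10 CPM (adjusted p = 0.043) and without deficient 232614 (adjusted p = 0.0463). The cause of these changes was not tested. Gpr56 was called against genetic controls with a filter at 10 CPM (adjusted p = 0.0499), with array weights (0.0435) and without genetic control 8619 (0.0393), and Pxylp1 against animal controls without genetic control 8619 (0.0403).

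The sign of a log2 difference turned in 12 cases, none called. Against genetic controls these were Acp2 (range -0.45 to 0.29 without 1 library, with 0.16 without deficient 432614, 0.02 without genetic control 8619, 0.29 without 8800), Bag1 (0.10 without deficient 142114, 0.09 without genetic control 8800), Bag5 (range -0.08 to 0.34, with -0.03 without deficient 232614, -0.08 without genetic control 8800) and Zbtb7a (-0.01 with array weights, -0.10 without deficient 432614, -0.17 without genetic control 124). Against animal controls it was Notch2 (range -0.98 to 0.19, with 0.19 without deficient 232614, 0.03 without animal control 142114). With unknown depth, a value at the bottom of the scale cannot be told from a low level.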
